A study of Homo sapiens with 10 samples.

Results

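RS4;11 is an established cell line of B-cell precursor acute lymphoblastic leukaemia (BCP-ALL) that carries a fusion of KMT2A and AFF1 from a translocation between chromosomes 4 and 11. The RNA-Seq libraries described here are those of 5 RS4;11 lines that were kept with the solvent DMSO, named VENsens lines 1 to 5, and they were chosen by the treatment in their labels from 10 libraries in all. The other 5 libraries came from VENins lines, grown in parallel under rising concentrations of the BCL-2 inhibitor venetoclax (VEN), and no test against them was made. The question here is what lines kept without VEN express, which genes they leave silent and how far 5 parallel cultures of the same leukaemia differ. All 5 lines descend from 1 cell line, so they are not separate leukaemias, and each was sequenced as 1 library, so the spread between lines and the spread between libraries cannot be told apart. The RNA came from whole cultures, in which fewer cells of a type and less RNA per cell cannot be told apart.

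A B-cell precursor is committed to its lineage by the transcription factors EBF1, PAX5 and TCF3, rearranges its immunoglobulin heavy chain with the RAG1 and RAG2 recombinase, and then tests the new heavy chain in a pre-B-cell receptor together with the surrogate light chain proteins VPREB1 and IGLL1. Fusions of KMT2A recruit elongation factors and the methyltransferase DOT1L to their target genes and keep a stem-cell programme of HOXA genes and MEIS1 active in such cells. BCL2, the target of VEN, holds the pro-apoptotic proteins of its family in check.

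Each library held between 38491516 and 52960365 reads, of which 52.7% to 54.2% were counted on genes. A further 24.6% to 25.8% were left out for low alignment quality, and 9.84% to 10.2% were not aligned. How these reads were spread over genes was not tested, so levels and zeros cover counted reads only. The counts on genes were 24010870 in line 1, 20631907 in line 2, 28323643 in line 3, 22975240 in line 4 and 25153892 in line 5. Levels are given as CPM, counts scaled to a common library size, after scaling by the trimmed mean of M-values (TMM), whose factors lay between 0.993 and 1.01. Levels of genes are ranked against each other as CPM per kilobase of exon, and CPM serves for the values of a gene over the lines, for sums over lists and for shares of counts. Of 19376 protein-coding genes, 10915 had at least 1 CPM in all 5 lines and are called expressed, 3808 had no count in any line, and the rest lay between. A count of 0 allows up to 3 counts, which is 0.106 CPM in the deepest library (line 3), 0.144 CPM in the shallowest (line 2) and 0.0248 CPM over the 5 lines together. These limits and all counting errors cover counting alone. Protein-coding genes took 88.8% ± 0.150 of the counts and processed pseudogenes 8.30% ± 0.114 (SD, n = 5).

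The most abundant protein-coding genes per kilobase of exon were genes of the cytoskeleton and of protein synthesis, with the surrogate light chain genes among the first 20 on this scale, though not without length scaling. ACTG1, which encodes cytoplasmic gamma-actin, led them with 9692, 9922, 10034, 10078 and 10142 CPM in lines 1 to 5, and its mean was 3332 ± 59.1 CPM per kilobase (SD, n = 5). It alone took 0.997% of all counts. ACTB, the beta-actin gene, reached 1223 ± 67.4 CPM per kilobase. TMSB10, which encodes an actin-sequestering thymosin, reached 1389 ± 87.3 CPM per kilobase. On the same scale its relative TMSB4X reached 547 ± 24.9. The actin cytoskeleton thus supplied 4 of the 20 genes. Another 7 of them encode cytosolic ribosomal proteins, led by RPS6 with 1399 ± 54.9 CPM per kilobase, and 29 of the first 100 genes encode such proteins. EEF2, the elongation factor that moves the ribosome along the mRNA, stood at 919 ± 41.9 CPM per kilobase. PRDX1, a peroxidase of hydrogen peroxide, stood at 1032 ± 92.9 CPM per kilobase, and among these 20 genes it had the highest coefficient of variation (CV), 9.01%. FTL, the light chain of the iron store ferritin, had the lowest, 1.60%. Counts were spread over many genes, as 1145 genes were needed for 50% of the counts and the 100 most counted genes held 14.98%. These shares describe reads counted on genes, among which the mitochondrial chromosome had 0 counts.

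**Figure D1:**
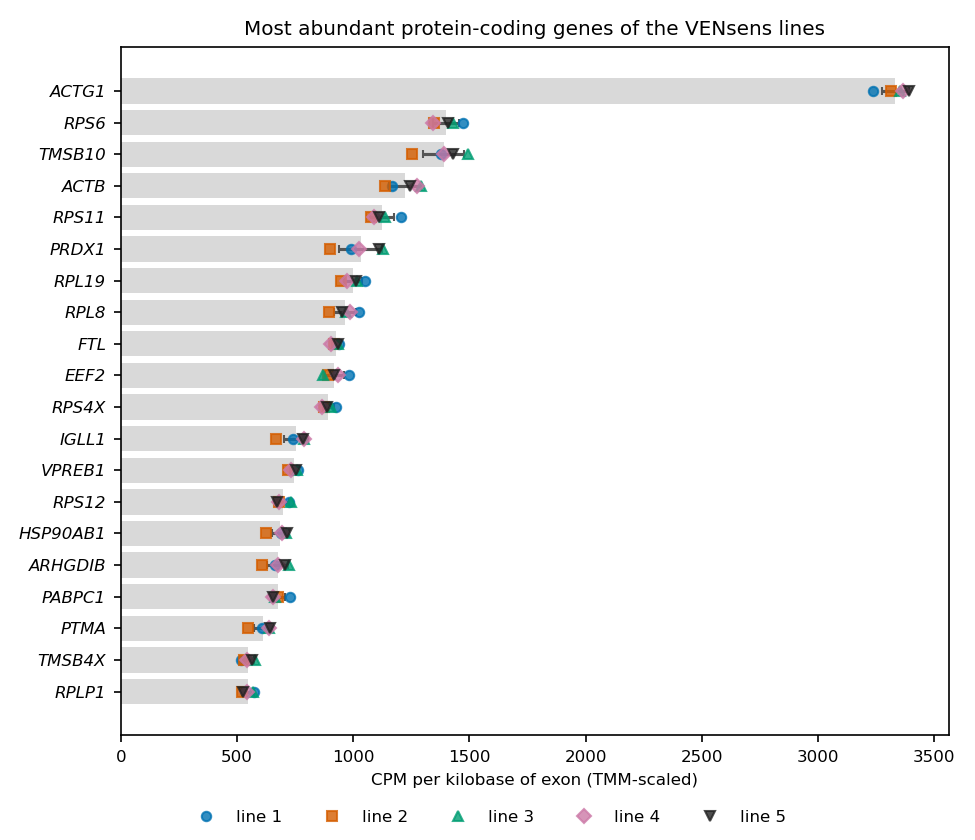
TMM-scaled CPM per kilobase of exon (linear axis) of the 20 most abundant protein-coding genes. Grey bars are means of the 5 VENsens lines with the SD as error bar and symbols are single lines; ACTG1 lies far above the rest, and IGLL1 and VPREB1 stand among ribosomal protein genes.

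IGLL1 and VPREB1, the 2 genes of the surrogate light chain, ranked 12 and 13 per kilobase. IGLL1 read 669.6, 604, 714, 713 and 707 CPM in lines 1 to 5, or 754 ± 51.7 CPM per kilobase. VPREB1 read 574, 544, 571, 554 and 569 CPM, or 745 ± 17.4 CPM per kilobase. Line 2 was lowest for both genes, by a wider margin for IGLL1. No other B-lineage gene was among the first 20.

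The 10 most abundant genes outside the protein-coding class were all processed pseudogenes, mostly of ribosomal protein genes. The first was AC016739.1 with 5910.1 ± 353 CPM per kilobase. TMSB4XP8, a copy of TMSB4X, followed with 4119 ± 121 CPM per kilobase. Counts on such copies and on their parent genes cannot be separated with certainty, so levels of the parents are uncertain. Within the ribosome list single members had very low values: RPS27 had a mean of 11.1 ± 0.671 CPM per kilobase, RPS28 3.84 ± 0.428 and RPL9 7.40 ± 0.367. Their levels are given as counted and are not read as low expression, and the part of such copies in them was not tested.

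Genes of the translation machinery are known to begin their transcripts within a run of pyrimidines, a feature that links their translation to growth signalling, so the start sites of abundant genes were read from RefSeq promoters (GRCh38.p14). A run of at least 7 bases, each C or T on the gene's strand, touched the 20 bases from 5 before to 15 after the start in 42 of 56 promoters of the cytosolic ribosome list (75%). The share was 41.3% of 109 promoters of the 100 most abundant protein-coding genes, and 31.3% of the 83 among these that lie outside the ribosome list. It was 20.6% of all 35116 promoters, 20.1% of those of expressed protein-coding genes and 21.7% of those of genes at 0. The windows below show 4 genes of translation that hold such a run, with the run in capitals, and 3 other abundant genes that hold none, all 5′ to 3′ on the gene's strand with the start at the base after the first 5.
RPS6: tggCCCTCTTTTCCgtggcg
EEF2: gcgTTCTCTTCCgccgtcgt
RPS12: gaggCCTCTTTCCCTgccgc
RPLP1: gagagCCCCTTTCCTCagct
ACTG1: tcggtctcagtcgccgctgc
IGLL1: ggggtgcaatgggacagctg
VPREB1: gccacaggagtcagagctct
These windows lie at chr9:19380222-19380241 (RPS6, minus strand), chr19:3985449-3985468 (EEF2, minus strand), chr6:132814564-132814583 (RPS12, plus strand), chr15:69452813-69452832 (RPLP1, plus strand), chr17:81512785-81512804 (ACTG1, minus strand), chr22:23580276-23580295 (IGLL1, minus strand) and chr22:22244781-22244800 (VPREB1, plus strand) of GRCh38.p14. The pyrimidine run covers the start in RPS6, EEF2, RPS12 and RPLP1, while ACTG1, the most abundant protein-coding gene, and both surrogate light chain genes have no such run in this window. The split did not follow gene function throughout: TMSB10 and FTL, which do not serve translation, hold a run that begins before the window, and the ribosomal protein gene RPS4X holds none. A match is a description of the letters only. CpG content set expressed genes and genes at 0 apart more plainly. The 300-base promoters of expressed genes held a median of 25 CpG and those of genes at 0 a median of 7. These genes at 0 include genes of the places described next, where a 0 cannot be read as silence.

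A count of 0 did not mean the same thing at every place in the genome, and this limits what can be called silent. Of 136 protein-coding genes from HLA-F to HLA-DPB1 on chromosome 6, 116 were at 0 in all 5 lines and 6 were expressed, while 191 of 859 on the rest of that chromosome were at 0. Genes that every cell uses were among those at 0, such as DDX39B, an mRNA export helicase, and CSNK2B, the regulatory subunit of casein kinase 2. TUBB, the main beta-tubulin gene of dividing cells, had 1 count in line 5 and none elsewhere, and RPS18, a ribosomal protein gene, had 1 count in line 1 and none elsewhere. Of 18 pseudoautosomal protein-coding genes 14 were at 0, and all 13 protein-coding genes of the mitochondrial chromosome were at 0. Outside these places, which were singled out after their values were seen, 3665 of 19209 protein-coding genes were at 0 (19.1%). Genes inside these places are described only as listed at 0. The unreadable zeros need not stop at HLA-F: the 22 protein-coding genes directly before it, from GPX5 to ZFP57, were all at 0, among them the broadly used TRIM27 and many olfactory receptor genes. These genes remain in the 3665 and in the family counts below.

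Counts of expressed list members here and below stand against a share of 56.3% among all protein-coding genes, and the lists were chosen with earlier results of these data known. Of the B-lineage transcription factors 13 of 14 were expressed, and their summed level was 4779, 5149, 4746, 4953 and 4942 CPM in lines 1 to 5. PAX5, which holds B-cell identity, read 781, 820.2, 717, 808 and 793 CPM, with line 3 lowest. EBF1, the pioneer factor of the lineage, read 263.6, 288, 277, 280.4 and 281 CPM. TCF3, which encodes the E-proteins E12 and E47, read 831, 747, 756, 771 and 745 CPM, with line 1 highest. The 3 commitment factors were thus present in each line within a range of at most 1.14-fold. Per kilobase the leading member was LEF1, a factor of Wnt signalling in early B cells, with 174 ± 11.4 CPM per kilobase. SOX4, needed for survival of B-cell precursors, followed with 169.6 ± 18.6 CPM per kilobase, and in CPM it stood highest in line 2 (1181 against 900.4 to 969.6 elsewhere). IKZF1, which encodes Ikaros, had 44.1 ± 2.63 CPM per kilobase. Its relative IKZF3, which encodes Aiolos and marks later stages, was low, with a mean of 0.355 ± 0.104 CPM. TCF4, the third E-protein gene, was low at 0.229 ± 0.0405 CPM per kilobase.

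Of the surface and signalling genes of the B lineage 11 of 12 were expressed. Per kilobase CD79A, the signalling chain of the B-cell receptor, led with 365 ± 16.2 CPM per kilobase, and its partner CD79B had 71.4 ± 8.25. CD22, an inhibitory receptor, was one of the steadiest genes of all, at 209, 212, 211, 212 and 212 CPM and a CV of 0.594%. BLNK, the adaptor that couples the pre-B-cell receptor to its kinases, was low at 2.12, 2.64, 3.97, 2.79 and 3.28 CPM, although BTK, the kinase it works with, had a mean of 212 ± 3.94 CPM. Per kilobase BLNK stood at 0.810 ± 0.192 and BTK at 46.2 ± 0.860 CPM. CD24, a surface antigen of B-cell precursors, was at 0 in all 5 lines, and as this gene has near-identical copies its 0 is uncertain.

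The recombination machinery was expressed together with the heavy chain. RAG1 read 201, 261, 225, 232 and 239.6 CPM, with line 1 lowest and line 2 highest. RAG2 read 66.0, 70.3, 76.3, 73.2 and 74.4 CPM. IGHM, the mu heavy chain gene, read 938, 836, 838, 841 and 811 CPM, with line 1 highest. DNTT, which adds untemplated bases at the joins, was the only list member with a mean of at least 5 CPM and a 2-fold range, at 3.57, 3.03, 8.37, 3.79 and 6.40 CPM, where lines 3 and 5 lay above lines 1, 2 and 4. ADA, an enzyme of purine salvage that is high in lymphoid precursors, read 131, 129, 131, 127 and 132 CPM and hardly varied. Among 51 heavy-chain V segments the counts centred on few: IGHV3-20 had 71.7 CPM on average and IGHV6-1 36.2 CPM, and IGHV3-20 alone held 54.3% of the level on these segments. IGHJ6 was the leading J segment, with 17.7 CPM. IGHV3-20 read 72.8, 84.2, 63.0, 72.3 and 66.4 CPM in lines 1 to 5. These are counts per segment, and joins between segments were not examined, so which segments were rearranged was not tested. Of 36 lambda V segments 1 was expressed, IGLV4-3, with 44.1 CPM. Of 4 lambda constant genes 2 were expressed, IGLC3 with 11.6 CPM and IGLC7 with 2.07 CPM. IGLV4-3 read 59.4, 52.2, 37.0, 37.2 and 34.9 CPM in lines 1 to 5, and IGLC3 16.2, 12.2, 10.2, 9.84 and 9.53 CPM. Both were higher in lines 1 and 2 than in lines 3, 4 and 5. Of 43 kappa V segments 1 was expressed, IGKV4-1, with 1.41 CPM, and the kappa constant gene IGKC was at 0. Of the T-cell receptor segments TRDV2 was the leading one, at 84.7, 96.8, 86.2, 88.3 and 83.2 CPM, a delta segment whose recombination is known from B-cell precursor leukaemia.

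Genes of mature B cells and plasma cells were expressed in part, 9 of 16, about the share among all protein-coding genes (56.3%). XBP1, the factor of the secretory programme that is also used outside plasma cells, led with 177 ± 6.30 CPM per kilobase. IRF4, which acts downstream of the pre-B-cell receptor and again in plasma cells, had 36.6 ± 0.629 CPM per kilobase. MS4A1, which encodes CD20, was low at 0.582, 0.720, 1.03, 0.915 and 0.961 CPM. CD27 did not exceed 0.248 CPM in any line. The summed level of the list was 803, 835, 839, 831 and 848 CPM, most of it XBP1 and IRF4. The other expressed members were TNFRSF13B, TNFRSF13C, CD40, SDC1, CD83, JCHAIN and FCRL1, with means from 2.43 CPM (FCRL1) to 33.0 CPM (TNFRSF13B).

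Of the stem and progenitor antigens 5 of 12 were expressed, not far from the share among all protein-coding genes. FLT3, the growth factor receptor of early progenitors, read 305, 350.1, 301, 316 and 327 CPM, with line 2 highest. PROM1, which encodes CD133, read 427, 450.03, 430.3, 423 and 436 CPM. PTPRC, which encodes CD45, read 481, 567, 472, 536 and 530.1 CPM. By contrast CD34 did not exceed 0.0961 CPM, KIT did not exceed 0.144 CPM, and TAL1 was at 0. MME, which encodes the common ALL antigen CD10, was also low, at 0.789, 1.30, 1.17, 1.13 and 0.640 CPM. The label of a B-cell precursor leukaemia line thus matched the lineage factors and surface genes. Of 2 antigens often used for such leukaemias, CD34 was nearly absent as RNA and CD10 was low. CD99 lies in the pseudoautosomal region and was listed at 0.

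The programme known from KMT2A-rearranged leukaemia had 21 of 22 list genes expressed, against 56.3% of all protein-coding genes, and a summed level of 4539.6, 5061, 4642, 4830.0 and 4877 CPM in lines 1 to 5. HOXA9 read 143, 141, 144, 145 and 141 CPM and had a CV of 1.24%. MEIS1, its DNA-binding partner, read 101.1, 104, 102, 98.6 and 100.6 CPM. PBX3, the third member of that complex, read 367, 388, 387, 373 and 389.7 CPM. No line stood apart for these 3 genes, and the widest range among them was 1.06-fold. Per kilobase the leading genes of the list were CDK6, the cell-cycle kinase that KMT2A fusions depend on, with 153 ± 10.9 CPM per kilobase, and LAMP5, with 128 ± 4.94 CPM per kilobase. CSPG4, which encodes the NG2 antigen used to recognise KMT2A-rearranged leukaemia, read 169, 165, 169, 173 and 175 CPM. LGALS1, a galectin, read 70.0, 82.8, 82.7, 82.8 and 82.4 CPM, with line 1 below the other 4. CCNA1 was the 1 gene of the list that stayed under 1 CPM in every line, at a mean of 0.386 ± 0.102 CPM.

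The HOXA cluster was the HOX cluster with most genes expressed. Of 11 HOXA genes 10 were expressed, of 10 HOXB genes all were at 0, of 9 HOXC genes 2 were expressed (HOXC4 and HOXC6), and of 9 HOXD genes none was. HOXA9 was the most abundant HOXA gene per kilobase, with 47.2 ± 0.585 CPM per kilobase. Of the others on the programme list HOXA10 came next with 20.8 ± 1.33 and HOXA5 after it with 12.6 ± 0.738 CPM per kilobase. HOXA4 was lowest of those listed, at 0.811 ± 0.132 CPM per kilobase.

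Among genes of the KMT2A complex 10 of 11 were expressed. KMT2A itself read 226, 249, 211, 226 and 228 CPM and its fusion partner AFF1 266, 337, 269, 298 and 294 CPM, both highest in line 2. Counts on these 2 genes sum the normal and the fused transcripts. DOT1L, the methyltransferase recruited by the fusion, read 103, 84.6, 88.3, 93.8 and 90.6 CPM. MEN1, the scaffold that anchors KMT2A on chromatin, read 45.0, 40.7, 43.2, 43.7 and 38.8 CPM. MLLT3, another common fusion partner of KMT2A, did not exceed 0.0480 CPM in any line. Its relative MLLT1 had a mean of 23.1 ± 1.56 CPM.

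The BCL-2 family set out in these lines is the one that VEN acts on. BCL2 read 394, 462, 397, 423 and 433 CPM in lines 1 to 5. MCL1, the anti-apoptotic relative that VEN does not bind, read 216, 245.4, 229, 233 and 227 CPM. BCL2L1, which encodes BCL-XL, read 74.4, 67.9, 65.9, 69.1 and 69.5 CPM. Per kilobase MCL1 stood at 52.6 ± 2.43, BCL2 at 35.8 ± 2.37 and BCL2L1 at 20.9 ± 0.952 CPM, and BCL2A1 was nearly absent with a mean of 0.0754 ± 0.0218 CPM. Among the pro-apoptotic BH3-only genes PMAIP1, which encodes NOXA, the partner of MCL1, led with 74.4 ± 5.26 CPM per kilobase. BCL2L11, which encodes BIM, read 43.0, 46.4, 41.5, 46.9 and 43.7 CPM. BMF read 60.4, 74.1, 49.8, 51.7 and 53.2 CPM, with line 2 highest. HRK did not exceed 0.0480 CPM. The effectors BAX and BAK1 were both expressed, BAX at 38.6, 33.3, 44.3, 36.3 and 41.2 CPM and BAK1 at 17.9, 14.6, 16.5, 15.9 and 15.4 CPM. In all, 13 of 16 family genes were expressed, and none of these 13 had a range of 1.5-fold or more.

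Of 17 matched genes that are targets or gates of leukaemia therapy, 15 were expressed. CXCR4, the receptor that holds blasts in the marrow, led with 182 ± 9.26 CPM per kilobase. IL7R, the receptor of the growth factor of B-cell precursors, read 705, 766, 671, 713 and 724 CPM. NR3C1, the glucocorticoid receptor, read 561, 679.9, 579, 617 and 623 CPM, with line 2 highest. CD38, the target of daratumumab, read 118, 135, 122, 121 and 116 CPM, again with line 2 highest. ASNS, the enzyme that limits the effect of asparaginase, read 30.9, 34.8, 30.5, 28.7 and 27.6 CPM. CD33 was low at 1.74, 2.02, 2.69, 2.05 and 2.36 CPM. IL3RA and CRLF2 lie in the pseudoautosomal region and were listed at 0.

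Growth genes were led by MYC with 238 ± 13.5 CPM per kilobase. MYB, the factor of haematopoietic progenitors, had 112 ± 2.45 CPM per kilobase. Of the D-type cyclins CCND3 alone was used, at 1077, 891, 977, 957 and 972 CPM, while CCND1 did not exceed 0.528 CPM and CCND2 did not exceed 0.320 CPM. CDKN2A and CDKN2B, the neighbouring inhibitors of CDK4 and CDK6, were both at 0 in all 5 lines. They did not stand alone: MTAP beside them had 1 count in line 5 and none elsewhere, and the 19 genes from FOCAD to IFNE, in a row on chromosome 9, were all at 0, among them the broadly used genes FOCAD, HACD4 and KLHL9. The 17 type I interferon genes counted here were all at 0. Whether DNA of this region is present was not tested. Another row of 30 genes at 0, from YTHDC1 to AMBN on chromosome 4, began with YTHDC1, a reader of methylated RNA that most cells use, and went on with genes of tissue-restricted use, such as the UGT2B enzymes of the liver, the caseins, STATH of saliva and AMBN of tooth enamel. Both rows of genes were singled out after their values were seen.

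Lists of markers of other cell types were expressed in part. Of 20 myeloid genes 7 were expressed, and the summed level was 279, 297, 296, 295 and 298 CPM in lines 1 to 5. Per kilobase SPI1 led them with 39.2 ± 2.48 CPM per kilobase, a factor that B-cell precursors also use, and FUT4 followed with 30.6 ± 2.14. The granule and calprotectin genes ELANE, PRTN3, S100A8 and S100A9 were at 0 in all lines, and MPO did not exceed 0.240 CPM. CEBPA had a mean of 0.324 ± 0.0496 CPM. SPI1 and FUT4 thus made up most of the list's level. CSF1R, the receptor of macrophage growth factor, read 9.22, 6.10, 9.71, 9.67 and 9.21 CPM, with line 2 below the other 4.

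Of 18 T-cell genes 5 were expressed, with a summed level of 444, 448, 437, 441 and 445 CPM. Most of it was ZAP70, a kinase also known from B-lineage leukaemia, with 351, 347, 346, 350.0 and 346 CPM and a CV of only 0.623%. LCK followed with 75.4, 83.1, 74.2, 75.2 and 82.6 CPM. The surface genes CD3D, CD2, CD4, CD8A and CD8B were at 0, and CD3E had a mean of 0.919 ± 0.103 CPM. PTCRA, the partner chain of the pre-T-cell receptor, had a mean of 6.73 ± 1.04 CPM.

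Of 12 NK-cell genes 3 were expressed, with a summed level of 63.9, 55.6, 58.6, 57.7 and 59.99 CPM, and NKG7, a granule protein gene, supplied most of it at 52.3, 44.7, 50.1, 48.2 and 52.8 CPM. KLRD1, NCR1, GZMB and KIR2DL1 were at 0, and NCR3, which lies in the region from HLA-F to HLA-DPB1, was listed at 0. Of 16 erythroid and megakaryocyte genes 3 were expressed, with a summed level of 43.8, 58.9, 47.4, 53.6 and 48.0 CPM, led by ITGA2B with 36.6, 50.05, 39.0, 44.6 and 40.02 CPM. HBA1, HBA2, PF4 and PPBP were at 0 among counted reads.

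Outside the blood, 2 of 10 epithelial genes were expressed, with a summed level of 6.44, 5.72, 5.78, 5.62 and 5.72 CPM, led by MUC1 with 4.25 ± 0.316 CPM. EPCAM, KRT5, KRT8, KRT14, KRT18 and KRT19 were at 0. Of 14 stromal and endothelial genes 4 were expressed, with a summed level of 22.6, 23.3, 21.8, 23.2 and 24.3 CPM, led by PDGFRB with 14.6 ± 0.659 CPM, and COL3A1, DCN, LUM, PECAM1 and CDH5 were at 0. Of 11 matched liver, nerve and muscle genes 2 were expressed, with a summed level of 71.0, 75.3, 76.0, 76.5 and 79.0 CPM. This level was that of SYT1, a sensor of calcium in vesicle release, with 60.5, 62.5, 64.1, 63.6 and 65.6 CPM, and of CKM, the muscle creatine kinase, with 9.35, 10.9, 10.7, 11.0 and 11.8 CPM. TTR, SNAP25, MYH6, MYH7 and DES were at 0. Each of these lists thus had members at 0 and members that were expressed.

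Several gene families of specialised tissues had most of their members at 0. Of 350 olfactory receptor genes 300 were at 0 and 1 was expressed, OR2W3, at a mean of 1.35 CPM. Of 93 keratin-associated protein genes 82 were at 0 and none was expressed. Of 55 keratins 2 were expressed, KRT10 at a mean of 25.2 CPM and KRT80. Of 26 MAGE antigen genes, which many tumours switch on, none was expressed and 18 were at 0. By contrast 393 of 511 genes named ZNF were expressed, and 42 of them were at 0.

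The 5 lines were close to each other. Among 9632 protein-coding genes with a mean of at least 5 CPM, the median ratio of the highest to the lowest line was 1.16 and the median CV was 5.91%. A 2-fold range was reached by 2 of them (0.0208%), DNTT with 2.77-fold and C11orf21 with 2.05-fold, and by 8 of 11360 genes of all kinds (0.0704%). Without line 5 neither was counted, as the mean of DNTT was then under 5 CPM and the range of C11orf21 under 2-fold. The nearest protein-coding genes below the threshold were MXRA7 with 1.98-fold, UNC5B with 1.93-fold and HR with 1.899-fold. A 1.5-fold range was reached by 150 protein-coding genes (1.56%). Counting error made up much of the spread of low genes, as the median CV between 5 and 10 CPM was 9.80% where counting alone gives 7.59%. From 100 to 500 CPM it was 4.61% where counting alone gives 1.63%. With counting error set apart in edgeR, the common biological coefficient of variation was 6.04%, and it was 4.56% without line 2.

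**Figure D2:**
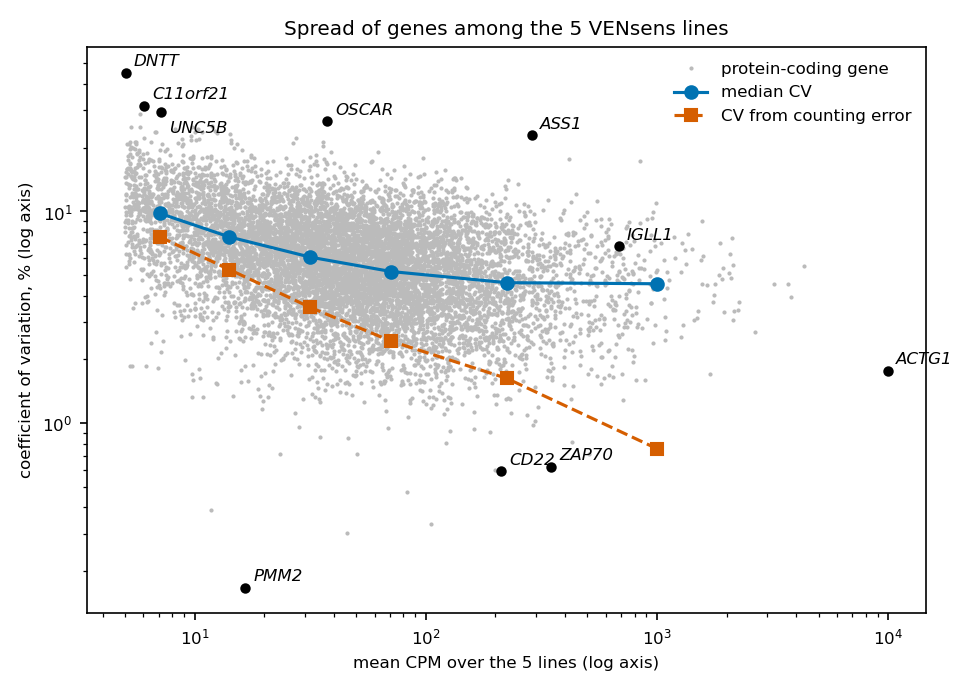
CV over the 5 VENsens lines (log axis) against mean CPM (log axis) for protein-coding genes with a mean of at least 5 CPM (grey). Blue circles are the median CV in bins of level, orange squares the CV that counting error alone gives, and named black points include DNTT at the top and PMM2 at the bottom.

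DNTT had the widest range of any protein-coding gene with a mean of at least 5 CPM, a limit its mean of 5.03 CPM passed narrowly, and it is the recombination gene whose level tracks the earliest precursor stages. C11orf21, a little-studied gene, read 8.27, 7.92, 4.93, 5.096 and 4.04 CPM, with lines 1 and 2 above lines 3, 4 and 5. MT2A, a metallothionein that binds zinc and copper, read 12.8, 9.70, 16.9, 17.1 and 15.5 CPM, with line 2 lowest. OSCAR, an activating receptor for collagen, read 54.5, 30.0, 36.8, 33.7 and 31.5 CPM, with line 1 above the other 4. The other genes among the 20 with the widest range had 1.73-fold or more between lines and means of at most 14.2 CPM outside OSCAR and MT2A. At the low end PMM2, an enzyme of the mannose pathway of glycosylation, was steadiest, with 16.5, 16.5, 16.5, 16.6 and 16.5 CPM and a CV of 0.167%. USP13, TRAF3IP1, CCDC115, CD22, RPL7L1, ZAP70, RMND1 and KDSR were also among the 10 steadiest genes, all with a CV of at most 0.717%. Their CV lies below what counting error alone gives on average at their level.

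The remaining genes with a 2-fold range were 6 genes outside the protein-coding class, and 5 of these were highest in line 4. RMRP, the RNA of a ribonuclease that processes ribosomal RNA, read 4.53, 3.60, 4.25, 14.4 and 4.04 CPM. 7SK, the small nuclear RNA that holds the elongation factor P-TEFb inactive, read 9.06, 7.40, 8.08, 28.5 and 7.88 CPM. SNORA73B, a small nucleolar RNA, read 4.03, 3.07, 5.35, 8.80 and 3.84 CPM. Line 4 stood above the other 4 for each of them, by 3.18-fold over the next line for RMRP and 3.15-fold for 7SK. AL355075.4, an antisense gene in GENCODE 29, read 5.57, 2.79, 3.97, 23.9 and 3.68 CPM, and 1 identifier without a name was likewise highest in line 4. The annotation release used for counting is not given in the sources used here. What these 2 identifiers stood for at counting is therefore uncertain. AC087190.1, an antisense gene, was the exception, with 3.41, 7.35, 4.08, 5.44 and 5.04 CPM and line 2 highest. Whether counting used strand is not given in the sources used here, so levels of antisense genes and of the genes they overlap are uncertain. No gene stood 2-fold from the other 4 lines in lines 1, 2, 3 or 5, and 4 genes did in line 4, all above. Without line 4 the count of genes with a 2-fold range was 2, DNTT and C11orf21, as AC087190.1 then fell under a mean of 5 CPM.

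Replication-dependent histone genes, whose mRNAs end in a stem-loop in place of a poly(A) tail, went the same way in line 4. The median over 12 such genes of log2 CPM minus the mean of the 5 lines, called the deviation from here on, was -0.070, 0.094, -0.085, 0.30 and -0.12 in lines 1 to 5. H1-5, a linker histone, read 4.11, 4.32, 3.94, 7.23 and 3.00 CPM. The most abundant member per kilobase, H2BC12, read 18.5, 22.6, 20.2, 18.3 and 19.9 CPM and was not highest in line 4. Levels of these genes were low throughout, with a summed level of 82.7, 91.5, 81.9, 97.0 and 80.0 CPM. How RNA without a poly(A) tail entered each library was not tested.

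Sets of genes that report on the state of a culture moved by small amounts, against a deviation over all 14641 genes between -0.013 in line 2 and 0.0095 in line 3. Mitotic genes were lowest in line 1, with -0.25, -0.036, 0.076, 0.092 and 0.059. MKI67, the proliferation antigen Ki-67, read 673, 816, 794, 815 and 803 CPM, and CENPE, a motor of the kinetochore, read 74.6, 103, 98.2, 103 and 97.2 CPM. TOP2A, the topoisomerase of chromosome condensation and the most abundant member per kilobase, read 453, 612, 536, 588 and 569 CPM. All 3 were lowest in line 1. DNA replication genes gave another order, with line 2 below the rest at 0.043, -0.16, 0.049, 0.022 and 0.044. PCNA, the clamp of the replicative polymerases, read 488, 418, 498, 486 and 508 CPM, and MCM7, a subunit of the replicative helicase, read 1104, 912, 1058, 1049 and 1067 CPM. Genes of replication and of mitosis thus had their lowest values in different lines.

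**Figure D3:**
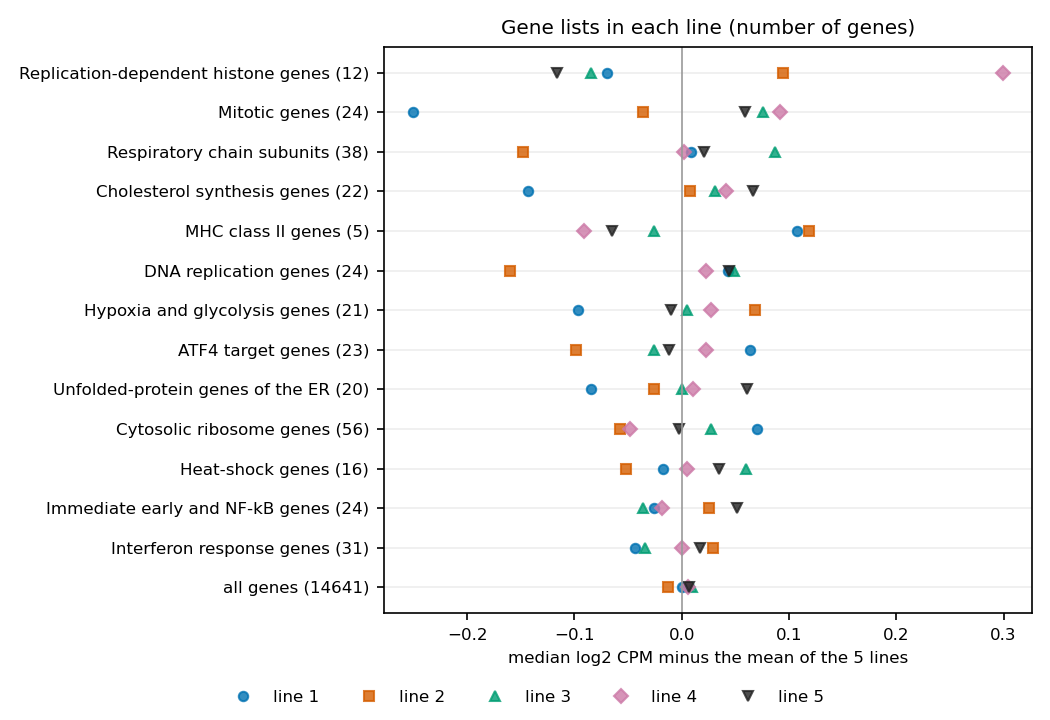
Median deviation (log2 CPM minus the mean of the 5 lines) of 13 gene lists and of all genes in each VENsens line, with the number of genes in brackets. Histone genes stand highest in line 4, mitotic genes lowest in line 1, and replication and respiratory chain genes lowest in line 2.

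Metabolic lists showed the same pair of lines at the edge. Cholesterol synthesis genes were lowest in line 1, with -0.14, 0.0079, 0.031, 0.041 and 0.066. HMGCS1, which makes the precursor of mevalonate, read 358, 504, 444, 457 and 463 CPM, and INSIG1, the sterol sensor that restrains the pathway, read 656, 832, 722, 743 and 749.7 CPM, both lowest in line 1 and highest in line 2. Respiratory chain subunits encoded in the nucleus were lowest in line 2, with 0.0091, -0.15, 0.087, 0.0019 and 0.021. ATP5F1B, the catalytic subunit of ATP synthase, read 907, 869, 955, 969 and 979.8 CPM, and COX8A, a small subunit of cytochrome oxidase, read 120.1, 85.2, 122, 114 and 113 CPM. Hypoxia and glycolysis genes were lowest in line 1, with -0.10, 0.068, 0.0053, 0.027 and -0.01, and ENO1, the enolase gene, read 1780.2, 1865, 2018, 1954 and 2022 CPM. Targets of ATF4, the factor of the amino acid response, had deviations of 0.064, -0.10, -0.026, 0.022 and -0.012. Among them ATF5 read 1093, 749.9, 795, 858 and 732 CPM and WARS1, the tryptophan tRNA synthetase, read 547, 386, 383, 395 and 369 CPM, both highest in line 1. ASS1, the arginine synthesis enzyme, also stood highest in line 1, at 405, 262, 264.01, 253 and 253 CPM.

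Base composition moved with the level most in lines 1 and 2, and transcript length most in lines 2 and 3. Genes with a GC content of at least 60% had deviations of 0.087, -0.10, 0.015, 0.023 and -0.019 in lines 1 to 5, and genes under 40% had -0.066, 0.077, -0.012, -0.0027 and 0.011. In line 2 transcripts of at least 5000 bases had a deviation of 0.061 and those under 1500 bases -0.059, and in line 3 these were -0.034 and 0.047. Lines 1 and 2 thus lay on opposite sides for GC content. Over 9632 protein-coding genes with a mean of at least 5 CPM, the share in which a line was highest or lowest was also compared. It was 48.8%, 65.1%, 35.8%, 23.9% and 26.4% in lines 1 to 5, and line 2 was the shallowest library. Each line's dependence on transcript length and GC content was also removed, an alternative chosen after the data were seen. Mitotic genes then had -0.21, -0.034, 0.084, 0.10 and 0.052, and replication genes 0.049, -0.15, 0.026, 0.022 and 0.041. These values were close to those above, except that replication genes in line 3 fell from 0.049 to 0.026. Respiratory chain subunits then stood at -0.11 in line 2 and histone genes at 0.29 in line 4. Targets of ATF4 then stood at 0.10 in line 1 and -0.069 in line 2. The part of length and GC content in single genes was not tested.

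**Figure D4:**
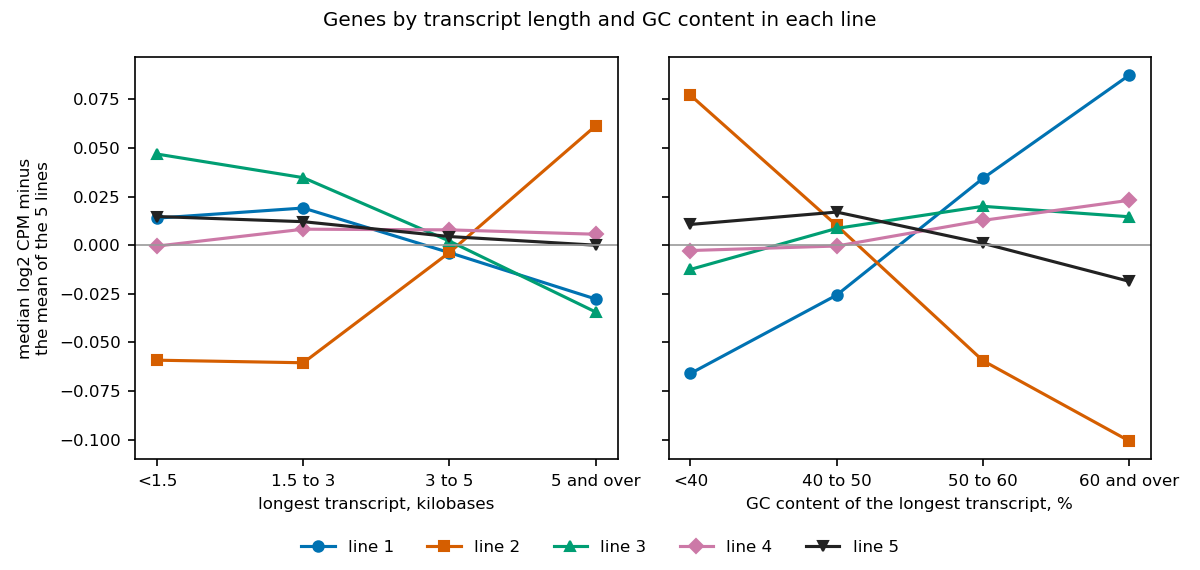
Median deviation (log2 CPM minus the mean of the 5 lines) of genes grouped by the length in kilobases (left) and the GC content in percent (right) of their longest transcript, with 1 curve per VENsens line. Lines 1 and 2 diverge in opposite directions with GC content, and line 2 rises with length.

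Distances between pairs of lines gave the same picture. The chi-square per degree of freedom of their counts was lowest for lines 4 and 5, 1.85, and highest for lines 1 and 2, 8.92, where sampling noise alone gives about 1. No pair agreed within sampling noise, so no library was taken for a second copy of another. Separate libraries of 1 culture could differ as much, and this was not tested. The widest spread of a chromosome's median deviation was on chromosome 19, with 0.051, -0.065, 0.016, 0.013 and -0.0086. With each line's dependence on length and GC content removed its values were 0.0036, -0.011, 0.0083, 0.002 and 0.0068, and chromosome 20 had the widest spread, with 0.018, -0.040, 0.0045, 0.004 and 0.0071. Over 274 windows of 50 neighbouring expressed genes, 11 deviations were beyond 0.1 in size, and the largest was -0.15, in line 2 on chromosome 16. With that dependence removed, none was beyond 0.1 and the largest was 0.087.

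Genes that set 1 line apart, with at least 25% between it and the nearest other line, were few outside lines 1 and 2, and this threshold was chosen after the data were seen. Among 9632 protein-coding genes with a mean of at least 5 CPM, line 1 had 32 above and 21 below the other 4. Line 2 had 47 above and 85 below, and lines 3, 4 and 5 had 2 above and 2 below each. Length and GC trends were not removed for these counts. In line 1, UNC5B, a netrin receptor, was high at 10.8, 6.72, 5.57, 6.88 and 5.80 CPM, and CRY1, a repressor of the circadian clock, was low at 10.9, 17.7, 15.4, 16.5 and 15.8 CPM. In line 2 HR, a corepressor of nuclear receptors, was high at 5.44, 8.74, 4.82, 5.44 and 4.603 CPM, and NDUFA11, a subunit of complex I, was low at 29.4, 20.0, 31.1, 28.97 and 29.5 CPM. In line 5 FAS, the death receptor, was high at 4.86, 4.51, 5.96, 5.18 and 7.52 CPM. In line 4 IGLL5, a lambda-like gene, was low at 14.1, 13.4, 12.3, 9.37 and 11.8 CPM, and in line 3 DNTT was the leading gene.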

How the data were processed

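Gene counts of 5 RS4;11 lines kept with DMSO were used, 1 library per line, and the 5 libraries of VEN treated lines were not used. The authors deposited raw read counts per Ensembl gene identifier. According to the submitters' processing notes, single-end reads were demultiplexed with bcl2fastq 2.20.0.422, aligned to hg19 (GRCh37) with Bowtie2 2.3.5.1, sorted with SAMtools 1.9 and counted with HTSeq 0.9.1. Of 63677 identifiers 52526 were named by GENCODE 29, matched by identifier, and those without a name held 0.912% of counts. CPM was computed from the deposited counts after TMM scaling over the 5 libraries (edgeR 4.0.16, limma 3.58.1, R 4.3.3), and CPM per kilobase used the union of a gene's exons in GENCODE 29. Names, classes and lengths from GENCODE 29 can differ from those of the release used for counting, which is not given in the sources used here. Tables and plots were made in Python 3.11.15 (numpy 2.4.6, pandas 2.3.3, matplotlib 3.10.9), and the scripts were tested on simulated data.

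Expressed means at least 1 CPM in all 5 lines. Spread was described for genes with a mean of at least 5 CPM, as the ratio of the highest to the lowest line and as the CV. The biological coefficient of variation came from edgeR with an intercept-only design after filterByExpr (minimum count 10, minimum total 15). Deviations used log2 CPM with a prior count of 2, over genes with a mean of at least 1 CPM. Pairs of lines were compared over genes with at least 10 counts in the pair, and chromosomes in windows of 50 genes. Genes of chromosome Y were left out. No test between groups was made, as a single condition with 1 library per line is described. Dixon's criterion served only to list lines that stood apart.

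Genes were named by level (the 20 protein-coding and 10 other genes with the highest CPM per kilobase), by spread (the 20 with the widest range, the 10 with the lowest CV, and up to 5 above and 5 below for each line) and by membership of 17 identity and cell-type lists and 14 state lists, which were drawn up from general knowledge. The members and lists were chosen with earlier results of these data known, and single genes of the state lists were picked for naming after their values were seen. TSLPR and NEFL, and 9 of 23 histone symbols, could not be matched. Some genes and 1 state list are not reported here. Alternatives were RLE size factors (DESeq2 1.42.0), library size alone, other thresholds and filters, other gene lengths, the removal of each line in turn, length trends removed by natural splines with 4 degrees of freedom, and DESeq2 dispersions. Joint length and GC trends, and counts without the places of unreadable zeros, were added after the data were seen.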

Additional observations from a re-analysis of the deposited data

Results flagged for a closer look

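A line is listed here where its gap to the nearest of the other 4, divided by the range of the 5 lines, was above Dixon's critical value of 0.71. Chance gives about 1 in 20 such groups. Of 213 groups not chosen for their spread 21 passed (9.86%), and of 65 that were chosen because they varied 21 passed (32.3%). For chromosomes, values with length and GC trends removed are also given. The cause of these gaps was not tested.

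Line 1 stood below the other 4 in the median deviation of cholesterol synthesis genes (-0.14), of chromosome 2 (-0.026) and of chromosome 5 (-0.024). With length and GC trends removed the chromosome values were -0.0065 and -0.0022, and line 1 was no longer lowest. It was also lowest in CPM for LGALS1 (70.0), BCL11A (127), CD22 (209) and FUT4 (163), of which CD22 spanned only 209 to 212 CPM, and highest for IGHM (938), the BH3-only gene BBC3 (37.1) and the pseudogene RPL13AP5 (2042). Among genes chosen for their spread line 1 was lowest in CPM for MKI67 (673), CENPE (74.6) and DLGAP5 (46.6). It was highest for WARS1 (547), ASS1 (405), OSCAR (54.5), UNC5B (10.8), SCN4A (15.1) and ARHGEF10 (14.7).

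Line 2 stood below the other 4 in the median deviation of DNA replication genes (-0.16), of chromosome 7 (-0.016) and of chromosome 9 (-0.022). With length and GC trends removed these chromosome values were 0.004 and -0.013. In CPM it was lowest for PCNA (418), HSP90AB1 (1869) and CSF1R (6.10), and highest for SOX4 (1181), FOXO1 (75.3), CD38 (135) and CPEB2 (111). Among genes chosen for their spread it was lowest for MCM7 (912), COX8A (85.2), HPDL (23.2), CPNE2 (22.5), NDUFA11 (20.0) and SLC25A10 (5.00), and highest for HR (8.74) and BRWD3 (32.6).

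Line 3 was highest for LBHD1 (33.6 CPM), which was chosen for its spread. Line 4 was highest for TNFRSF13B (36.3 CPM), and, among genes chosen for their spread, for AL355075.4 (23.9 CPM), RMRP (14.4 CPM) and 7SK (28.5 CPM). Line 5 was not listed for any gene, chromosome or list compared.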

How the results depend on the processing

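RLE size factors and library size alone kept the counts of expressed genes, of genes with a 2-fold range and of genes in which a line stood 2-fold from the other 4 within 1.5 times of the reported ones, and the common biological coefficient of variation close to the reported one. On protein-coding genes only, the 100 most counted genes held 15.9% of counts. With the longest annotated transcript in place of the union of exons, 15 of the 20 most abundant genes were among the 20. Without length scaling 9 of the 20 most abundant genes were among the 20, and IGLL1 and VPREB1 were not, at ranks 136 and 201. The number of genes with a 2-fold range, 8, was 290 with a mean of at least 1 CPM, 6778 with no filter and a prior count of 2, and 228 at 1.5-fold. Leaving out a line in turn gave from 2 (without line 4) to 7. The protein-coding genes among them, 2 as reported, were 1 without line 1 or line 3 and 0 without line 5. The biological coefficient of variation was 4.51% from DESeq2's median gene-wise dispersion, and from 4.56% (without line 2) to 6.71% (without line 5) with a line left out. With a mean of at least 1 CPM, line 1 stood 2-fold from the other 4 in 3 genes, line 2 in 2 and line 4 in 7, where the reported counts were 0, 0 and 4. The counts at a gap of 25% were not recomputed under other settings. The cause of these changes was not tested, except that lower thresholds and filters admit more genes.

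Genes at 0 numbered 4946 with 1 count allowed per line, 5525 under 0.1 CPM and 3665 without the places of unreadable zeros. Of 70 list deviations 3 moved by at least 1 SD of the 5 lines when length and GC trends were removed, and 1 for the length trend alone. Of 115 chromosome deviations 9 moved with RLE size factors, 15 with library size alone, 4 without the length trend and 25 without both trends. Deviations near 0 changed sign under some of these, such as chromosome 7 in line 2, at 0.00056 without the length trend. Depth limits a 0 to 0.0248 CPM over the 5 lines, a limit that does not cover reads left out for low alignment quality. No paired analysis was possible because a single condition is described.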

Other observations

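Interferon response genes had deviations of -0.043, 0.029, -0.034, 0.00053 and 0.017 in lines 1 to 5. IFITM2, which blocks entry of viruses, was their most abundant member per kilobase and read 942, 743, 871, 851 and 802 CPM, whereas MX1 had a mean of 3.56 ± 0.571 CPM. With length and GC trends removed, line 2 stood at 0.069. CDKN1A, which encodes the cell-cycle inhibitor p21, read 98.3, 94.3, 119, 116 and 116 CPM. Immediate early and NF-kB genes had deviations of -0.025, 0.026, -0.036, -0.019 and 0.051. With length and GC trends removed, these were wider apart, with -0.088 in line 1 and 0.10 in line 2. FOS was low with a mean of 1.71 ± 0.270 CPM, and NFKBIA, the inhibitor of NF-kB, read 74.0, 67.9, 72.1, 70.5 and 70.3 CPM.

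Heat-shock genes had deviations of -0.018, -0.052, 0.060, 0.005 and 0.035, led per kilobase by HSP90AB1 with 687 ± 35.1 CPM per kilobase. The inducible genes HSPA1A and HSPA1B lie in the region from HLA-F to HLA-DPB1 and were listed at or near 0. Genes of the unfolded-protein response in the ER had deviations of -0.085, -0.026, 0.0005, 0.011 and 0.061, and HSPA5, the ER chaperone BiP, read 324, 403, 382, 382 and 417 CPM. Cytosolic ribosome genes had deviations of 0.070, -0.058, 0.028, -0.048 and -0.0028. With length and GC trends removed, line 2 stood at -0.012 and line 3 at 0.0044, and line 4 was lowest at -0.052.

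MHC class II genes with a mean of at least 1 CPM had deviations of 0.11, 0.12, -0.025, -0.091 and -0.065 over 5 genes, of which 3 (HLA-DRA, HLA-DQA1 and HLA-DQB1) lie inside the region of unreadable zeros. CD74, the invariant chain, read 1067, 1016, 981, 947 and 947 CPM, and CIITA, the master regulator of the class, read 84.7, 88.4, 77.7, 80.9 and 76.1 CPM. B2M, the class I light chain on chromosome 15, read 2011, 2292, 2137, 2036 and 2217 CPM. HLA-DRA read 30.1, 29.4, 26.2, 21.95 and 26.6 CPM, values that cannot be set against the levels of genes elsewhere.

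Other gene families gave mixed pictures. Of 76 mitochondrial ribosomal protein genes 72 were expressed, and of 55 cytochrome P450 genes 9 were, led per kilobase by CYP2R1, a vitamin D 25-hydroxylase, with a mean of 36.7 CPM. Of 21 gamma protocadherins 4 were expressed and none was at 0. Of 24 taste receptors 2 were expressed, TAS2R5 and TAS2R14.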
